A study of Homo sapiens with 8 samples.

Results

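The genes described here are MYC and 50 genes of ribosome biogenesis, 51 in all. They were found as rows of the deposited tables whose gene name equals the symbol, and 50 of the 51 had a row of their own in both tables. PWP2, a scaffold protein of the small subunit processome, shares a row with 2 other symbols and enters no count. All 50 genes reached 1 FPKM in at least 1 group of each table and were not at 0 in any group. The whole series had 19555 genes with a ratio in the NOTCH1-labelled line and 17683 in MCF10A.

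MYC is a transcription factor that pairs with MAX on E-box sequences and is known for raising the transcription of genes that build ribosomes. Ribosome biogenesis begins in the nucleolus, where RNA polymerase I transcribes the long precursor of the ribosomal RNAs. Small nucleolar ribonucleoproteins (snoRNPs) then modify that precursor, and separate sets of assembly factors fold, cut and export the small and the large subunit. Cells that grow and divide make many ribosomes, and MYC levels in mammary epithelial cells respond to growth factors.

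RNA was sequenced from 8 samples in 4 groups of 2. The groups were NOTCH1-labelled cells given ginkgolic acid, NOTCH1-labelled cells under DMSO, MCF10A cells given ginkgolic acid and MCF10A cells under DMSO. MCF10A comes from human mammary epithelium and does not form tumours, and the NOTCH1-labelled line is MCF10A that overexpresses the intracellular domain of NOTCH1. Ginkgolic acid, which inhibits SUMO conjugation, was given at 30 µM for 3 days, and DMSO, its solvent, for the same time. All groups grew in the same medium with horse serum, insulin, cholera toxin, epidermal growth factor and hydrocortisone. The labels do not give the promoter of the transgene, the number of clones or whether the 2 samples of a group came from separate cultures.

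The deposited tables hold 1 FPKM value per gene and group, where FPKM is fragments scaled to the length of the transcript and to the number of mapped fragments. The values therefore carry no replicate error. Differences between groups were not tested. Sequencing depth is unknown. "Higher" and "lower" describe the deposited values. A difference is counted when it is 2-fold or more, that is, an absolute log2 ratio of at least 1. The tables were normalized separately, so ginkgolic acid was set against DMSO within a table. In bulk RNA, fewer cells that express a gene and less of its RNA per cell cannot be told apart.

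The NOTCH1 gene itself had 12.4 FPKM under ginkgolic acid and 5.03 under DMSO in the NOTCH1-labelled table, and 6.18 and 11.4 FPKM in the MCF10A table. Under DMSO this runs counter to the label, but the row covers the whole gene and the tables were normalized separately, so the line is called NOTCH1-labelled throughout. HES1, a NOTCH target, had 508 FPKM under ginkgolic acid and 45.4 under DMSO in the NOTCH1-labelled table, and 179 and 36.6 FPKM in the MCF10A table, higher in the NOTCH1-labelled table under both. All breast epithelial markers with a row of their own, 13 in the NOTCH1-labelled table and 12 in the MCF10A table, were above 1 FPKM in every group. The 7 fibroblast markers summed to 44.3 FPKM under ginkgolic acid and 74.4 under DMSO in NOTCH1-labelled cells, and to 24.7 and 31.3 in MCF10A, and DCN was the highest of them in each group. The 7 blood cell markers summed to between 13.8 and 17.2 FPKM in the 4 groups, and 1 of them was listed at 0 in the MCF10A DMSO group. The part of such cells in the results was not tested.

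The member with the highest FPKM, NOP56, hosts snoRNAs in its introns, as does NOP58, the member with the lowest ratio in NOTCH1-labelled cells, so these snoRNA sequences are shown. NOP56 and NOP58 encode core proteins of box C/D snoRNPs, and their own introns hold box C/D snoRNAs. The sequences below are those of GENCODE release 29 (GRCh38, 5′ to 3′, in DNA letters), and capitals mark TGATG after an A or G, the core of box C, and the last CTGA, box D. The first 4 lie in NOP56 on chromosome 20 and the other 3 in NOP58 on chromosome 2, all on the plus strand. In the order printed they span chr20:2654212-2654286, chr20:2656097-2656182, chr20:2656624-2656694, chr20:2656939-2657010, chr2:202276431-202276518, chr2:202291332-202291421 and chr2:202293051-202293134.
SNORD110: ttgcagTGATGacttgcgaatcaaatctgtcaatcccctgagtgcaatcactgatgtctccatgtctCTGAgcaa
SNORD86: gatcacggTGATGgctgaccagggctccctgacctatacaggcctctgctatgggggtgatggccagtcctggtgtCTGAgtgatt
SNORD56: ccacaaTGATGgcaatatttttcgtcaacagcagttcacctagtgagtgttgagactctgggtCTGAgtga
SNORD57: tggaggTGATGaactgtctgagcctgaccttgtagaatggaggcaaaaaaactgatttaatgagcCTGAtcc
SNORD70: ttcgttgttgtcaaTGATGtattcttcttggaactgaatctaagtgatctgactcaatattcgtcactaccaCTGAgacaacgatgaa
SNORD11B: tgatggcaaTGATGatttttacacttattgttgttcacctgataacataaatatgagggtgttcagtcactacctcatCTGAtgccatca
SNORD11: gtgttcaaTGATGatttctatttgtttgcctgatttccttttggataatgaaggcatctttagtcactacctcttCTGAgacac

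In both lines the members were more often lower than higher under ginkgolic acid, and none was 2-fold or more higher. In NOTCH1-labelled cells, 18 of 50 (36.0%) were 2-fold or more lower, against 18.9% of all genes, with a median log2 ratio of −0.49 (all genes 0.06). In MCF10A, 14 of 50 (28.0%) were 2-fold or more lower, against 15.2% of all genes, with a median of −0.61 (all genes 0.07). The share of all genes 2-fold or more higher was 18.9% in NOTCH1-labelled cells and 24.3% in MCF10A, against 0 members. The members are well expressed, so genes with at least 5 FPKM in either group are a closer background. Of these, 9.41% were 2-fold or more lower in NOTCH1-labelled cells and 16.6% in MCF10A, with medians of 0.25 and −0.18, and 19.7% and 12.4% were 2-fold or more higher. The median over genes that reached 1 FPKM in both groups was 0.14 in NOTCH1-labelled cells and −0.11 in MCF10A. With this median removed, NOLC1 (−1.02) and RRP9 (−1.06) also passed 2-fold in NOTCH1-labelled cells, whereas RRP9 (−0.99) and RRP12 (−0.96) lay inside it in MCF10A.

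**Figure D1:**
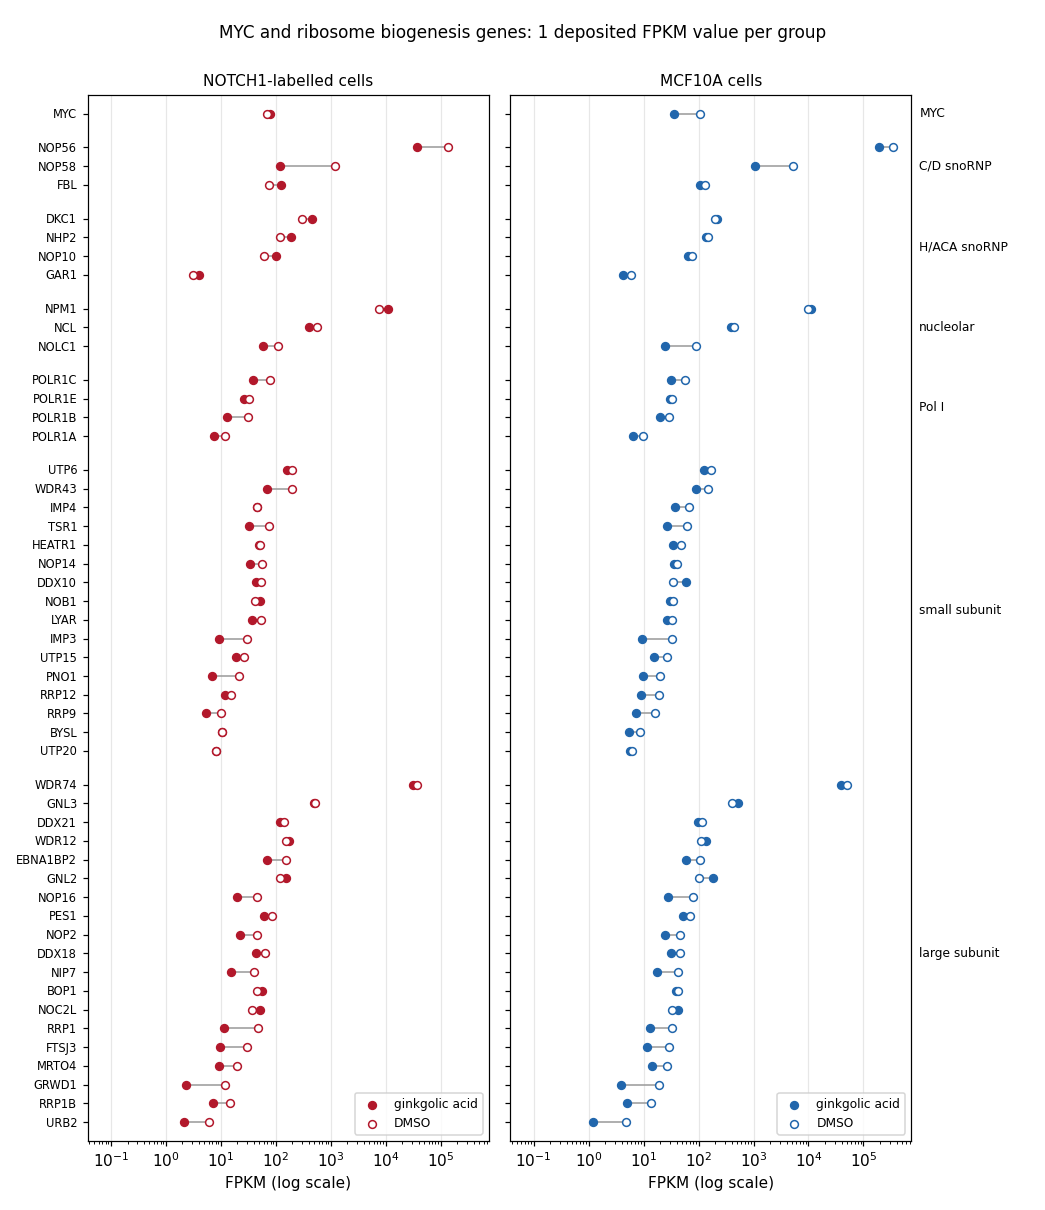
FPKM of the 50 members on a log scale, in NOTCH1-labelled cells (left) and MCF10A (right), by role and ordered by the level in MCF10A under DMSO, with filled points for ginkgolic acid and open points for DMSO. Most filled points lie left of their open point, and NOP56, WDR74 and NPM1 stand above 1000 FPKM in every group.

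Levels of the members spanned several orders of magnitude. Their median was 43.4 FPKM under ginkgolic acid and 52.6 under DMSO in NOTCH1-labelled cells, with 31.0 and 46.8 FPKM in MCF10A. Under 10 FPKM lay 11 members under ginkgolic acid and 3 under DMSO in NOTCH1-labelled cells, with 11 and 5 in MCF10A. The lowest value was that of URB2 in MCF10A under ginkgolic acid, 1.21 FPKM, and NOP56 had the highest value of each group, as the plot of levels shows.

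MYC had ratios of opposite sign in the 2 lines. The gene lies on chromosome 8 from 128747679 to 128753674 (hg19, locus of the NOTCH1-labelled table). In NOTCH1-labelled cells it had 79.0 FPKM under ginkgolic acid and 69.5 under DMSO, a log2 ratio of 0.18. In MCF10A it had 35.2 and 105 FPKM, a log2 ratio of −1.58. Of the 4 deposited values, that of MCF10A under ginkgolic acid was the lowest and that of MCF10A under DMSO the highest. This order crosses separately normalized tables.

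Among the partners and regulators of MYC, a list of 20 genes, 16 had a ratio in NOTCH1-labelled cells and 15 in MCF10A. In NOTCH1-labelled cells, 2 were 2-fold or more higher and 0 likewise lower, with a median of 0.15. PIM1, a kinase that phosphorylates MYC, had 166 FPKM under ginkgolic acid and 20.2 under DMSO there. KIAA1524, which encodes CIP2A, an inhibitor of the phosphatase that destabilizes MYC, had 20.0 and 4.52 FPKM. In MCF10A, 2 were higher and 2 lower, with a median of −0.14. Genes with at least 5 FPKM were 2-fold or more higher in 19.7% and lower in 9.41% in NOTCH1-labelled cells. In MCF10A these shares were 12.4% and 16.6%. MAX, the obligate partner of MYC, had 46.7 FPKM under ginkgolic acid and 108.7 under DMSO in MCF10A. MXD4, which competes with MYC for MAX, had 7.49 and 28.0 FPKM. KIAA1524 had 8.50 and 4.23 FPKM, and MLXIPL, a factor of the parallel MLX network, 2.29 and 1.00. Both MAX and MXD4 hold an annotated small RNA.

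Genes known as MYC targets outside ribosome biogenesis had medians nearer 0 than the members. Of 26 with a ratio, 2 were 2-fold or more lower and 2 likewise higher in NOTCH1-labelled cells, and 4 were lower and 0 higher in MCF10A. Their medians were 0.12, which lay below 0 once the median of each table was removed, and −0.29. The shares lower, 7.69% and 15.4%, stand beside 9.41% and 16.6% of genes with at least 5 FPKM. Higher were 19.7% and 12.4% of the genes with at least 5 FPKM. ODC1, the first enzyme of polyamine synthesis, had 39.0 FPKM under ginkgolic acid and 80.0 under DMSO in NOTCH1-labelled cells, with 17.7 and 40.9 FPKM in MCF10A. TFRC, the transferrin receptor, had 63.9 and 317 FPKM in NOTCH1-labelled cells, with 91.2 and 217 FPKM in MCF10A. These 2 genes, each of which holds an annotated small RNA, were lower under ginkgolic acid in both lines. ATIC, of purine synthesis, had 43.8 and 21.0 FPKM and HK2, a hexokinase, 13.0 and 6.29 FPKM in NOTCH1-labelled cells. CCND2, a G1 cyclin, had 5.16 and 13.2 FPKM in MCF10A.

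The box C/D snoRNP core, which methylates ribosomal RNA, was split. NOP58 (chromosome 2, 203130438 to 203168389, hg19) had 117 FPKM under ginkgolic acid and 1211 under DMSO in NOTCH1-labelled cells, which is 10.4-fold lower. In MCF10A it had 1068 and 5199 FPKM, 4.87-fold lower. NOP56 (chromosome 20, 2632790 to 2639039, hg19) had 36558 and 136327 FPKM in NOTCH1-labelled cells, a log2 ratio of −1.90, and 189652 and 345818 FPKM in MCF10A, a log2 ratio of −0.87. FBL, the methyltransferase itself, holds no annotated small RNA and had 121 and 75.7 FPKM in NOTCH1-labelled cells. In MCF10A FBL had 104 and 131 FPKM. NOP56 and NOP58 were therefore lower under ginkgolic acid in both lines, whereas FBL was higher in NOTCH1-labelled cells and lower in MCF10A, within 2-fold in each.

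How far reads of small RNAs enter the values of NOP56 and NOP58 was not tested. No separate row at the NOP56 locus was used for its snoRNAs, whereas NOP58 has separate rows for those printed above. SNORD70 was listed at 0 under ginkgolic acid and at 303 FPKM under DMSO in NOTCH1-labelled cells, and had 872 and 5494 FPKM in MCF10A. SNORD11B was listed at 0 and at 663 FPKM in NOTCH1-labelled cells, and had 60.8 and 97.6 FPKM in MCF10A. SNORD11 was listed at 0 and at 143 FPKM in NOTCH1-labelled cells, and had 723 and 188 FPKM in MCF10A, the only one of these 3 rows that was higher under ginkgolic acid. A listed 0 can be a failed estimate. Over the small RNAs of 6 member hosts, 14 rows a table, 7 rows were lower and 1 higher under ginkgolic acid in NOTCH1-labelled cells, and 6 were at 0 in both groups. In MCF10A 8 rows were lower and 5 higher, and 1 was at 0 in both groups. SNORA75, in an intron of NCL, had 13.1 and 423 FPKM in NOTCH1-labelled cells, with 125 and 302 FPKM in MCF10A. SNORD92, in WDR43, had 683 and 352 FPKM in NOTCH1-labelled cells, with 187 and 698 FPKM in MCF10A. SNORD53, also in WDR43, was listed at 0 and at 439 FPKM in NOTCH1-labelled cells, and had 1024 and 411 FPKM in MCF10A. In MCF10A the 2 rows of SNORD19, in GNL3, had 621 and 547 FPKM under ginkgolic acid, and both were listed at 0 under DMSO. The rows of different small RNAs thus had different directions.

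The box H/ACA snoRNP core, which converts uridine to pseudouridine, had no member beyond 2-fold in either line. In NOTCH1-labelled cells all 4 genes were higher under ginkgolic acid, with a median log2 ratio of 0.62. In MCF10A 3 of the 4 were lower, with a median of −0.19. Genes with at least 5 FPKM had medians of 0.25 in NOTCH1-labelled cells and −0.18 in MCF10A. At or below 0 were 38.2% and 58.7% of them. NOP10, a small scaffold protein, had 101 FPKM under ginkgolic acid and 59.7 under DMSO in NOTCH1-labelled cells, the highest ratio of any member there, and 63.1 and 75.8 FPKM in MCF10A. NHP2 had 185 and 119.6 FPKM in NOTCH1-labelled cells, with 139 and 150.0 FPKM in MCF10A. DKC1, the pseudouridine synthase, had 462 and 305 FPKM in NOTCH1-labelled cells, with 217 and 196 FPKM in MCF10A, and it holds small RNAs. GAR1 was the least expressed, at 3.95 and 3.16 FPKM in NOTCH1-labelled cells, with 4.22 and 5.79 FPKM in MCF10A.

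Of the abundant nucleolar proteins, NOLC1, a chaperone of snoRNPs, had the lowest ratio in each line. It had 59.3 FPKM under ginkgolic acid and 109 under DMSO in NOTCH1-labelled cells, a log2 ratio of −0.88, and 24.2 and 89.3 FPKM in MCF10A, a log2 ratio of −1.88. NPM1, nucleophosmin, had 11153 and 7582 FPKM in NOTCH1-labelled cells, with 11333 and 9919 FPKM in MCF10A, so it was slightly higher under ginkgolic acid in each line. NCL, nucleolin, had 401 and 555 FPKM in NOTCH1-labelled cells, with 391 and 448 FPKM in MCF10A. NCL hosts snoRNAs in its introns. NPM1 has no small RNA in the annotation used, and its level stood far above that of the other members without one.

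All 4 RNA polymerase I subunits among the members were lower under ginkgolic acid in both lines. Of 9 further subunits, some shared with other polymerases, 7 were above 0 and 2 below in NOTCH1-labelled cells (5 and 4 with the median of the table removed), and 1 was above 0 and 8 below in MCF10A. POLR1D, shared with RNA polymerase III, had 177 and 125 FPKM in NOTCH1-labelled cells, with 105 and 114 FPKM in MCF10A. POLR1B, the second-largest catalytic subunit, had 12.7 FPKM under ginkgolic acid and 31.3 under DMSO in NOTCH1-labelled cells, with 19.6 and 29.04 FPKM in MCF10A. POLR1C, shared with RNA polymerase III, had 38.5 and 78.6 FPKM in NOTCH1-labelled cells, with 31.1 and 57.7 FPKM in MCF10A. POLR1A, the largest subunit, had 7.53 and 11.7 FPKM and 6.44 and 9.94 FPKM in the same order. POLR1E was closest to equal, at 26.8 and 33.0 FPKM in NOTCH1-labelled cells, with 29.7 and 32.6 FPKM in MCF10A. POLR1B and POLR1C passed 2-fold in NOTCH1-labelled cells, and none of the 4 members did in MCF10A. Among genes with at least 5 FPKM, 9.41% were 2-fold or more lower in NOTCH1-labelled cells and 16.6% in MCF10A. At or below 0 were 38.2% and 58.7% of these genes. With the median of the table removed, POLR1E stood at −0.03 in MCF10A.

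In the small subunit group, 4 of 16 genes were 2-fold or more lower in each line, and 2 of them, IMP3 and TSR1, were the same in both. Of genes with at least 5 FPKM, 9.41% were lower in NOTCH1-labelled cells and 16.6% in MCF10A, against 25% of this group in each line. IMP3, which pairs U3 snoRNA with the precursor RNA, had 9.36 FPKM under ginkgolic acid and 29.8 under DMSO in NOTCH1-labelled cells and 9.56 and 32.3 FPKM in MCF10A. TSR1, an assembly factor of the cytoplasmic pre-40S particle and a host of snoRNAs, had 31.8 and 74.6 FPKM in NOTCH1-labelled cells, with 26.2 and 62.0 FPKM in MCF10A. Both genes were lower under ginkgolic acid by a similar ratio in the 2 lines. The deposited loci are longer than the genes, 26164 against 9622 bases for IMP3 and 321221 against 15005 for TSR1. The FPKM of both may therefore include neighbouring transcripts.

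The other small subunit genes past 2-fold were so in 1 line. PNO1, the partner of the nuclease NOB1, had 6.92 FPKM under ginkgolic acid and 21.4 under DMSO in NOTCH1-labelled cells. In MCF10A it had 9.97 and 19.6 FPKM, just inside 2-fold. WDR43, of the complex that links transcription to processing, had 69.6 and 194 FPKM in NOTCH1-labelled cells, with 91.4 and 152 FPKM in MCF10A. RRP9, a protein of the U3 snoRNP, had 5.32 and 10.1 FPKM in NOTCH1-labelled cells, with 7.41 and 15.9 FPKM in MCF10A. RRP12, an export factor, had 11.8 and 15.5 FPKM in NOTCH1-labelled cells, with 9.09 and 19.03 FPKM in MCF10A. PNO1 and WDR43 thus passed 2-fold in NOTCH1-labelled cells, and RRP9 and RRP12 in MCF10A.

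The remaining 10 small subunit genes had a ratio inside 2-fold in both lines. NOB1, the nuclease that makes the 3′ end of 18S ribosomal RNA, had 50.98 FPKM under ginkgolic acid and 41.5 under DMSO in NOTCH1-labelled cells and 29.9 and 33.7 FPKM in MCF10A. DDX10, an RNA helicase, had 43.9 and 52.9 FPKM in NOTCH1-labelled cells, with 58.9 and 33.9 FPKM in MCF10A, the highest ratio of the group there. HEATR1, UTP15, UTP20, UTP6, NOP14, LYAR, BYSL and IMP4 had log2 ratios between −0.75 and 0.05 in NOTCH1-labelled cells and between −0.84 and −0.16 in MCF10A. The joined row of PWP2 had 32.6 and 37.998 FPKM in NOTCH1-labelled cells, with 16.8 and 57.8 FPKM in MCF10A.

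In the large subunit group, 10 of 19 genes were 2-fold or more lower in NOTCH1-labelled cells and 7 of 19 in MCF10A. These are 52.6% and 36.8% of the group, against 18.9% and 15.2% of all genes and 9.41% and 16.6% of genes with at least 5 FPKM. GRWD1, a chaperone of ribosomal protein L3 (chromosome 19, 48949029 to 48957164, hg19), had 2.29 FPKM under ginkgolic acid and 12.1 under DMSO in NOTCH1-labelled cells, 5.29-fold lower. In MCF10A GRWD1 had 3.81 and 18.96 FPKM, 4.98-fold lower, the lowest ratio of all members there. URB2, a nucleolar protein, had 2.09 and 6.17 FPKM in NOTCH1-labelled cells, with 1.21 and 4.75 FPKM in MCF10A. With a pseudocount of 1 FPKM the log2 ratio of URB2 in MCF10A was −1.38 in place of −1.98.

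RRP1 and RRP1B, paralogs of a yeast factor for large subunit processing, were both lower. RRP1 had 11.3 FPKM under ginkgolic acid and 46.7 under DMSO in NOTCH1-labelled cells and 13.1 and 33.2 FPKM in MCF10A. RRP1B had 7.07 and 14.9 FPKM in NOTCH1-labelled cells, with 5.10 and 13.7 FPKM in MCF10A. Both paralogs passed 2-fold in both lines. With a pseudocount of 1 FPKM the log2 ratio of RRP1B in NOTCH1-labelled cells was −0.98 in place of −1.08.

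FTSJ3, a methyltransferase homologous to yeast Spb1, had 9.501 FPKM under ginkgolic acid and 30.1 under DMSO in NOTCH1-labelled cells and 11.4 and 29.5 FPKM in MCF10A. NIP7, an assembly factor, had 15.3 and 40.7 FPKM in NOTCH1-labelled cells, with 17.7 and 43.1 FPKM in MCF10A. NOP16, a nucleolar protein, had 19.5 and 46.0 FPKM in NOTCH1-labelled cells, with 28.3 and 78.1 FPKM in MCF10A. These 3 genes were lower by 2-fold or more in both lines. The deposited loci of NIP7 and NOP16 are more than 2 times as long as the genes, so their FPKM may include neighbouring transcripts.

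NOP2, a methyltransferase of 28S ribosomal RNA, had 21.8 FPKM under ginkgolic acid and 45.7 under DMSO in NOTCH1-labelled cells and 24.2 and 46.9 FPKM in MCF10A. MRTO4, which holds the place of a stalk protein during assembly, had 9.37 and 19.4 FPKM in NOTCH1-labelled cells, with 14.4 and 26.3 FPKM in MCF10A. EBNA1BP2 had 69.0 and 152 FPKM in NOTCH1-labelled cells, with 59.0 and 108 FPKM in MCF10A. All 3 passed 2-fold in NOTCH1-labelled cells and lay inside it in MCF10A, with values near the threshold. The log2 ratios were −1.07 and −0.95 for NOP2, −1.05 and −0.87 for MRTO4, and −1.14 and −0.87 for EBNA1BP2. With a pseudocount of 1 FPKM, MRTO4 lay inside 2-fold in NOTCH1-labelled cells too (−0.97). Its deposited locus spans 49793 bases in the NOTCH1-labelled table, against 8590 for the gene.

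The PeBoW complex, which acts in the maturation of 28S and 5.8S ribosomal RNA, stayed inside 2-fold. PES1 had 62.0 FPKM under ginkgolic acid and 85.9 under DMSO in NOTCH1-labelled cells and 51.5 and 69.7 FPKM in MCF10A. BOP1 had 56.4 and 46.2 FPKM in NOTCH1-labelled cells, with 38.8 and 41.8 FPKM in MCF10A. WDR12 had 175 and 151 FPKM in NOTCH1-labelled cells, with 139 and 112 FPKM in MCF10A. PES1 was lower and WDR12 higher under ginkgolic acid in both lines.

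GNL2 and GNL3, related GTPases of which GNL3 is known as nucleostemin, were not among the lower members in both lines. GNL2 had 155 FPKM under ginkgolic acid and 118 under DMSO in NOTCH1-labelled cells and 181 and 103 FPKM in MCF10A, the highest ratio of all members there. GNL3, a host of snoRNAs, had 498 and 514 FPKM in NOTCH1-labelled cells, with 532 and 413 FPKM in MCF10A. NOC2L had 51.5 and 36.2 FPKM in NOTCH1-labelled cells, the highest ratio of the large subunit group, and 43.1 and 33.4 FPKM in MCF10A. The helicases DDX18 and DDX21 and WDR74 had log2 ratios between −0.56 and −0.25 in NOTCH1-labelled cells and between −0.59 and −0.29 in MCF10A. WDR74 stood at 30581 and 37232 FPKM in NOTCH1-labelled cells, with 39385 and 49637 FPKM in MCF10A, and it overlaps an annotated copy of the U2 small nuclear RNA.

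**Figure D2:**
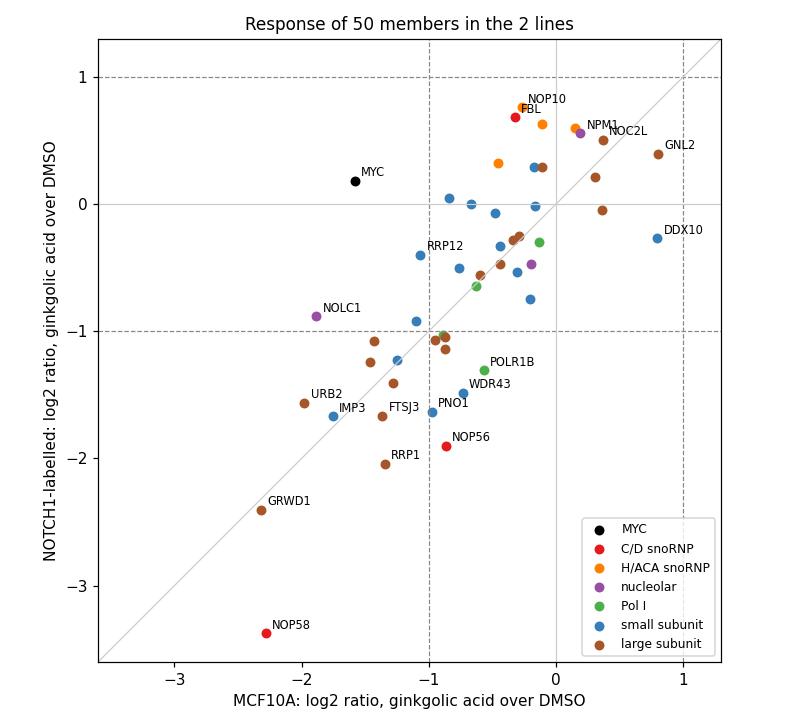
Log2 ratio of ginkgolic acid over DMSO for the 50 members, NOTCH1-labelled cells on the vertical axis and MCF10A on the horizontal axis, coloured by role, with dashed lines at 2-fold and a solid diagonal at equal ratios. Most points lie near the diagonal and below 0 on both axes, 10 lie past −1 on both, and MYC stands apart at 0.18 and −1.58.

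Most members had ratios of the same sign in the 2 lines. Of the 50 members, 34 were below 0 in both lines, against 24.6% of all genes, and 5 were above 0 in both. Taken 1 line at a time, 38.2% of genes with at least 5 FPKM were at or below 0 in NOTCH1-labelled cells and 58.7% in MCF10A. None of the members was 2-fold or more higher in both (5.17% of all genes), which follows from none being so in either line. A further 9 were above 0 in NOTCH1-labelled cells and below 0 in MCF10A, and 2 the reverse. At least 2-fold lower in both lines were 10 members, against 3.98% of all genes and 3.58% of genes with at least 5 FPKM in each table. These 10 are NOP58, RRP1, RRP1B, IMP3, TSR1, NOP16, NIP7, FTSJ3, URB2 and GRWD1. Of them, IMP3, TSR1, NOP16 and NIP7 have a deposited locus more than 2 times as long as the gene. NOP58 and TSR1 hold small RNAs. With a pseudocount of 1 FPKM, RRP1B lay inside 2-fold in NOTCH1-labelled cells (−0.98). The 10 make up 55.6% of the members past this threshold in NOTCH1-labelled cells and 71.4% of those in MCF10A. Across the 50 members the log2 ratios of the lines had a Pearson r of 0.76 and a Spearman rho of 0.76. Over genes with at least 5 FPKM in each table, 8716 in number, r was 0.38. The points are genes and so no independent replicates, and the ratios of a gene in the 2 tables share its length and sequence.

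The difference between the lines, the log2 ratio in NOTCH1-labelled cells minus that in MCF10A, had a median of 0.04 over the members and 0.22 over all genes. It was at least 1 for 4 of 50 members, against 21.5% of all genes, and at most −1 for 3, against 22.5%. Among genes with 5 FPKM or more these shares were 24.9% and 8.03%. Above 1 stood MYC with 1.76, NOP10 with 1.03, FBL with 1.01 and NOLC1 with 1.00. Below −1 stood NOP58 with −1.09, DDX10 with −1.07 and NOP56 with −1.03. The other 43 members differed by less than 2-fold between the lines. Without the members that hold small RNAs, 1 of 38 remained below −1, and it was DDX10. When the median log2 ratio of genes that reached 1 FPKM in both groups was removed from each table, only MYC remained above 1.

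The levels of the members were also close between the lines. Under ginkgolic acid the median log2 ratio of NOTCH1-labelled over MCF10A was 0.23 over the members and 0.27 over all genes, and under DMSO it was 0.12 and 0.12. These values cross separately normalized tables. Under DMSO no member was 2-fold or more higher and 2 were 2-fold or more lower in NOTCH1-labelled cells, namely NOP56 and NOP58. The shares of all genes were 19.9% higher and 8.78% lower, and 8.28% and 7.97% of genes with at least 5 FPKM. Under ginkgolic acid 3 were higher and 2 lower, the lower ones again NOP56 and NOP58 and the higher ones MYC, DKC1 and NOLC1. There 15.4% of all genes were higher and 9.9% lower, and 15.9% and 2.85% of genes with at least 5 FPKM.

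**Figure D3:**
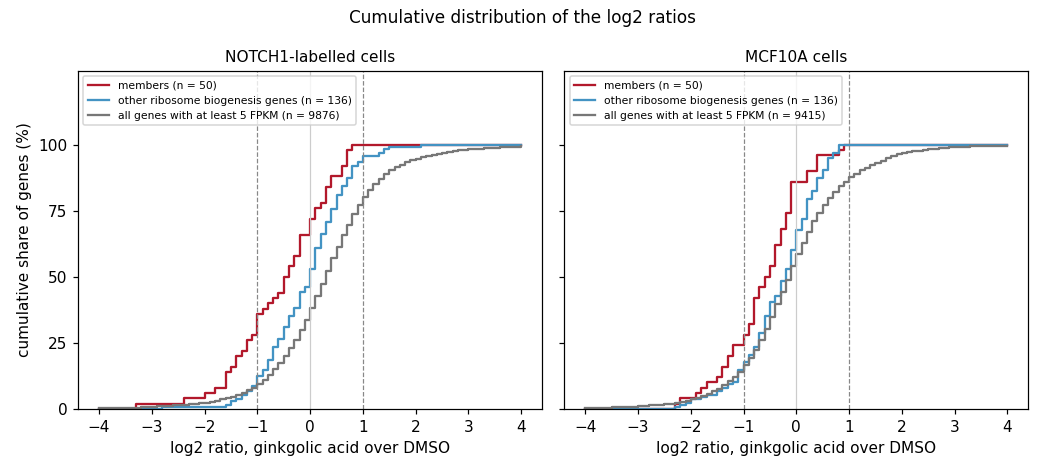
Cumulative share of genes (vertical axis, percent) at or below each log2 ratio of ginkgolic acid over DMSO (horizontal axis), for the 50 members, 136 other ribosome biogenesis genes and all genes with at least 5 FPKM. The members' curve lies left of the others over most of its range, and the curve of the other ribosome biogenesis genes lies close to that of all genes at −1, at 12.5% and 17.6% lower in NOTCH1-labelled cells and MCF10A. At 0 the curve of the other ribosome biogenesis genes stands at 52.9% and 67.6%, and that of all genes at 38.2% and 58.7%.

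Other ribosome biogenesis genes had a smaller share past 2-fold. Over 5 lists of polymerase I factors, small and large subunit factors, snoRNP assembly factors and the exosome, 136 genes that are no members had a ratio in each line. In NOTCH1-labelled cells 17 were 2-fold or more lower and 6 likewise higher, with a median of −0.03. In MCF10A 24 were lower and 0 higher, with a median of −0.26. Their shares higher and medians lay below those of all genes with at least 5 FPKM. The latter were 19.7% and 12.4% higher, with medians of 0.25 and −0.18. The shares lower of the 136 genes, 12.5% and 17.6%, were near those of all genes with at least 5 FPKM, 9.41% and 16.6%. The members, chosen with earlier results of these data known, had 36.0% and 28.0%. The difference between the members and the other genes was not tested.

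**Figure D4:**
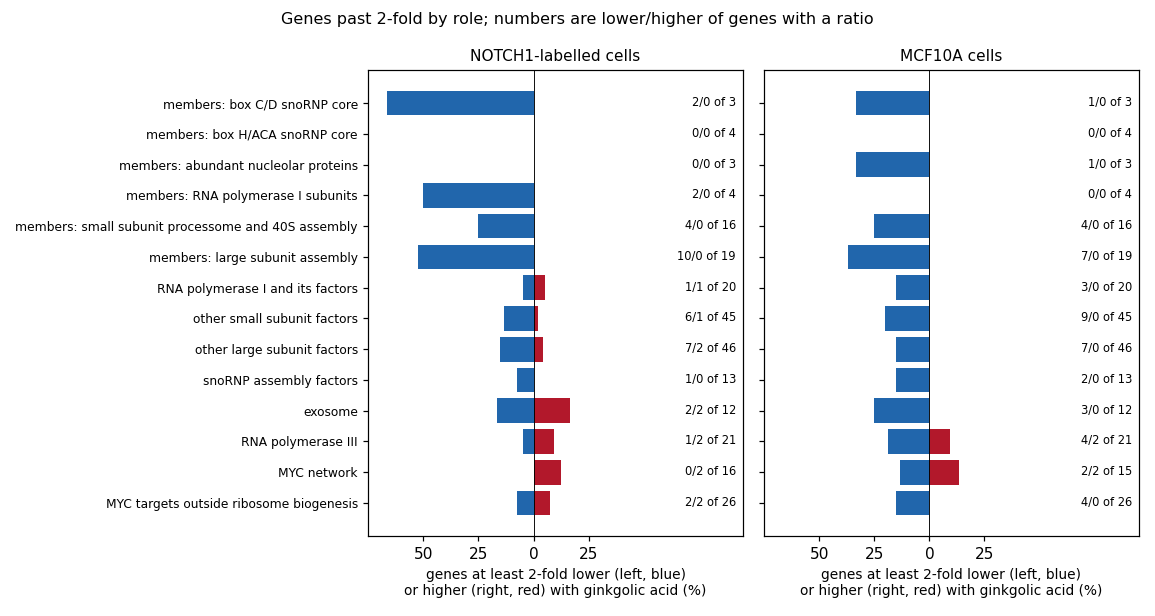
Percent of genes 2-fold or more lower (left of 0) and higher (right of 0) under ginkgolic acid in each role group of members and each list of other genes, in NOTCH1-labelled cells and MCF10A, with the counts printed beside the bars. The large subunit members reach 10 of 19 and 7 of 19 lower, and the other large subunit factors 7 of 46 in each line.

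Among other small subunit factors, 6 of 45 were 2-fold or more lower and 1 likewise higher in NOTCH1-labelled cells, and 9 were lower and 0 higher in MCF10A. SURF6, a nucleolar protein, had 3.68 FPKM under ginkgolic acid and 26.2 under DMSO in NOTCH1-labelled cells. UTP3 had 7.89 and 25.6 FPKM there, and UTP23 19.1 and 50.04. TRMT112, an activator of methyltransferases, had 442 and 174 FPKM in NOTCH1-labelled cells and was the 1 gene higher. In MCF10A the named genes were PDCD11, at 15.9 and 45.3 FPKM, RRP7A, at 9.47 and 23.9 FPKM, and UTP11L, at 30.9 and 68.2 FPKM.

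Among other large subunit factors, 7 of 46 were 2-fold or more lower in each line, and 2 were 2-fold or more higher in NOTCH1-labelled cells. RRP15 had 41.6 FPKM under ginkgolic acid and 101 under DMSO in NOTCH1-labelled cells and 32.7 and 95.6 FPKM in MCF10A. HEATR3 had 5.19 and 15.3 FPKM and PAK1IP1 11.3 and 31.6 FPKM in NOTCH1-labelled cells. EFTUD1, the GTPase that releases eIF6 from the large subunit, had 146 and 55.4 FPKM there, and WDR18 17.8 and 7.51 FPKM. ISG20L2, an exonuclease, had 4.17 and 17.2 FPKM and MYBBP1A 14.8 and 40.2 FPKM in MCF10A.

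Of 20 further polymerase I subunits and factors, 1 was 2-fold or more lower and 1 higher in NOTCH1-labelled cells, and 3 were lower and 0 higher in MCF10A. ZNRD1, a subunit, had 30.5 FPKM under ginkgolic acid and 11.4 under DMSO in NOTCH1-labelled cells. TAF1C, of the promoter selectivity factor, had 2.23 and 9.86 FPKM in MCF10A, and PTRF, known as a release factor of the polymerase and as a caveolar protein, 9.63 and 44.3 FPKM. Of 13 snoRNP assembly factors, 1 was lower in NOTCH1-labelled cells and 2 in MCF10A. TGS1, which modifies the cap of U3 snoRNA, was lower in both lines, at 6.75 and 16.3 FPKM in NOTCH1-labelled cells, with 5.43 and 21.9 FPKM in MCF10A. SHQ1, an assembly factor of H/ACA snoRNPs, had 8.52 and 17.1 FPKM in MCF10A.

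Of 12 exosome genes, 2 were 2-fold or more lower and 2 higher in NOTCH1-labelled cells, and 3 were lower and 0 higher in MCF10A. EXOSC8, a ring subunit, had 80.2 FPKM under ginkgolic acid and 19.7 under DMSO in NOTCH1-labelled cells, and EXOSC5 16.4 and 6.67. EXOSC6 was lower in both lines, at 6.74 and 17.0 FPKM in NOTCH1-labelled cells, with 5.44 and 26.8 FPKM in MCF10A. MPHOSPH6, an exosome cofactor, had 28.5 and 63.1 FPKM in NOTCH1-labelled cells, with 14.5 and 29.2 FPKM in MCF10A. EXOSC2 had 17.2 and 40.6 FPKM in MCF10A. Among genes with at least 5 FPKM, 9.41% were lower and 19.7% higher in NOTCH1-labelled cells, with 16.6% and 12.4% in MCF10A.

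Of 21 genes of RNA polymerase III, which makes 5S ribosomal RNA and transfer RNAs, 1 was 2-fold or more lower and 2 higher in NOTCH1-labelled cells, and 4 were lower and 2 higher in MCF10A. BRF2, an initiation factor for a subset of its promoters, was higher in both lines, at 9.56 FPKM under ginkgolic acid and 1.88 under DMSO in NOTCH1-labelled cells and 10.7 and 3.77 FPKM in MCF10A. POLR3GL was higher in both as well, at 36.7 and 16.3 FPKM and 30.8 and 14.9 FPKM. POLR3B, the second-largest subunit, had 7.98 and 17.2 FPKM in NOTCH1-labelled cells. BRF1 had 9.97 and 24.5 FPKM and GTF3C6 14.2 and 39.8 FPKM in MCF10A. The shares of genes with at least 5 FPKM were 9.41% lower and 19.7% higher in NOTCH1-labelled cells, with 16.6% and 12.4% in MCF10A.

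Promoter windows were read for the members because MYC with MAX binds the E-box CACGTG. The windows run from 250 bases before to 50 bases after the annotated start (RefSeq, GRCh38.p14), and 42 of the 51 members matched one. CACGTG, which reads the same on both strands, was present in 19 of the 42, or 45.2%, against 8.77% of all genes with a window. The variant CACGCG, searched on both strands, was present in 13 members, or 31.0%, against 13.5% of all genes, and 14 members held neither. The genes with a window number 27305 and were taken without regard to expression. No share was computed over expressed genes, which would be a closer background for the members. A match is a description of the letters and shows no binding. NOP2 and PNO1 were 2-fold or more lower under ginkgolic acid in NOTCH1-labelled cells and lower but inside 2-fold in MCF10A. FBL lay inside 2-fold in both lines. The windows of NOP2, PNO1 and FBL are shown with CACGTG in capitals. They span chr12:6568242-6568541 (minus strand), chr2:68157638-68157937 (plus strand) and chr19:39846330-39846629 (minus strand), each written 5′ to 3′ along its gene.
NOP2: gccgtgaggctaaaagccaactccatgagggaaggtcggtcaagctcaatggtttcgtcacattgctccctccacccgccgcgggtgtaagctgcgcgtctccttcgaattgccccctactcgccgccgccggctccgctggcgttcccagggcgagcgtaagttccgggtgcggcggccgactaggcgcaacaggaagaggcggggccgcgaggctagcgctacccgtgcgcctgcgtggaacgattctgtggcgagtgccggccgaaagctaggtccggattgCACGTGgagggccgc
PNO1: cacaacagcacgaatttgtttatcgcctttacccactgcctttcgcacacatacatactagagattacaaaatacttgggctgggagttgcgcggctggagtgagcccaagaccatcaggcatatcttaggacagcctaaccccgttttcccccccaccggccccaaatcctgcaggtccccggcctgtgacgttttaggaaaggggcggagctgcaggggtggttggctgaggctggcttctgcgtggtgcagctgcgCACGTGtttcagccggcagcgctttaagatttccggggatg
FBL: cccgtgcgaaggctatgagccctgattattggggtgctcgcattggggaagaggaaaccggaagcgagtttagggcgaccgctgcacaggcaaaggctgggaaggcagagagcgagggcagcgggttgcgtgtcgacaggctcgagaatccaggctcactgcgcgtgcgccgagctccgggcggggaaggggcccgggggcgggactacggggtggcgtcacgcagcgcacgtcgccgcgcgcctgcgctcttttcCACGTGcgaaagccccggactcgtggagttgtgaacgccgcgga

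**Figure D5:**
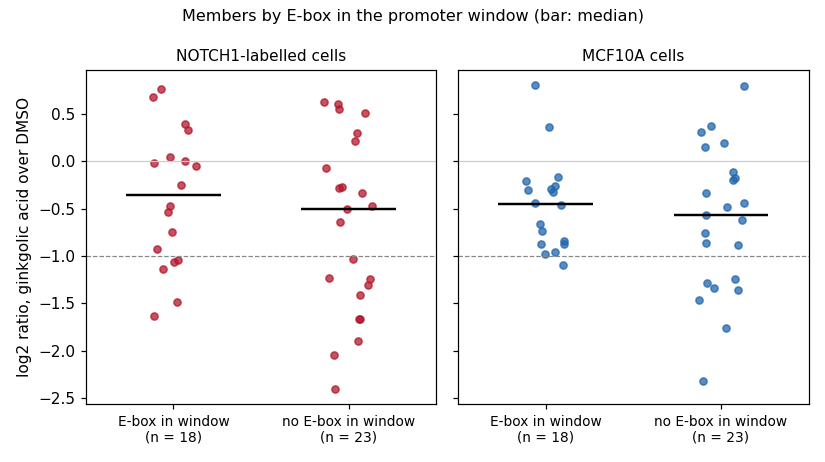
Log2 ratio of ginkgolic acid over DMSO (vertical axis) for 18 members with and 23 members without CACGTG in the promoter window, in NOTCH1-labelled cells and MCF10A, with a bar at the median. The points of both sets overlap over most of their range, and the lowest ratios belong to members without the motif.

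Members with and without the E-box overlapped in their ratios. With it, 18 members had a median log2 ratio of −0.36 in NOTCH1-labelled cells and −0.45 in MCF10A. Without it, 23 members had medians of −0.50 and −0.56. At least 2-fold lower were 5 of 18 with it and 10 of 23 without it in NOTCH1-labelled cells, and 1 of 18 and 7 of 23 in MCF10A. The shares of all genes were 18.9% and 15.2%. In MCF10A the 1 member with an E-box past 2-fold was RRP9, which lay inside 2-fold (−0.99) once the median of the table was removed. The 7 members without an E-box stayed past 2-fold after that removal. The set without it includes members with the variant CACGCG, among them GRWD1, RRP1 and TSR1. The 9 members without a window are in neither set, among them MYC, NOP58, NOLC1, RRP12, RRP1B and URB2. All of those named were 2-fold or more lower in MCF10A. Sites outside the window were not read. The difference between these sets was not tested.

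Small RNAs overlapped 12 of the 50 members in GENCODE release 29. Of these 12, 6 were 2-fold or more lower in NOTCH1-labelled cells and 3 in MCF10A, with medians of −0.75 and −0.80. Of the other 38, 12 and 11 were 2-fold or more lower, with medians of −0.49 and −0.58. The medians of both sets lay below 0 in both lines. Of all genes 18.9% and 15.2% were 2-fold or more lower, and 9.41% and 16.6% of genes with at least 5 FPKM. For 11 of the 50 members the deposited locus is more than 2 times as long as the annotated gene, and their FPKM may include neighbouring transcripts. These are NHP2, IMP3, TSR1, PNO1, NOB1, NOP16, PES1, MRTO4, GNL3, NIP7 and NOC2L. The locus of NIP7 spans 303009 bases against 5116, and that of PES1 1251540 against 30459. Without these 11 members, 12 of 39 were 2-fold or more lower in NOTCH1-labelled cells and 10 of 39 in MCF10A, against the same shares of all genes.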

How the data were processed

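RNA came from RNeasy columns, and the library kit was ScriptSeq Complete Gold, per the labels' protocols. The submitters' processing notes name TopHat2 2.0.8b, Bowtie2 2.1.0, Cuffdiff 2.1.1, Cufflinks 2.1.1 and the build hg19 (GRCh37). Annotation, settings, use of strand and how samples were combined: not given in the sources used here. Per the file headers, the authors deposited FPKM, in 2 tables with 1 value per gene and group. The planned test needed values per sample or q-values, so the size rule of 2-fold was used.

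Left out were unnamed and joined rows, small RNAs, duplicated symbols and rows off the main chromosomes. Ratios are log2 of ginkgolic acid over DMSO with no pseudocount, for genes that reach 1 FPKM in either group and are never 0. GENCODE release 29 (GRCh38) gave small RNAs and gene lengths, and RefSeq the promoter windows. The members and lists were chosen with earlier results of these data known. Any member may be named. Other genes are the 3 highest and 3 lowest per list and line past 2-fold that reach 1 FPKM in both groups, of which 1 is not reported here, and HES1, POLR1D and the named snoRNAs were added after their values were seen. The counting was tested on simulated data. The software was Python 3.11.15, pandas 2.3.3, numpy 2.4.6 and matplotlib 3.10.9.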

Additional observations from a re-analysis of the deposited data

Results flagged for a closer look

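In 4 members the ratios of ginkgolic acid over DMSO had opposite signs in the 2 lines and differed by at least 2-fold. The difference is the log2 ratio in NOTCH1-labelled cells minus that in MCF10A. It was 1.76 for MYC (0.18 and −1.58), 1.03 for NOP10 (0.76 and −0.26), 1.01 for FBL (0.68 and −0.33) and −1.07 for DDX10 (−0.27 and 0.80). Of the 4, only MYC lay past 2-fold within a line. None of these differences was tested, since each group has 1 deposited value.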

How the results depend on the processing

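The 8 planned settings and 2 chosen after seeing the data left the members' medians below 0 in both lines, from −0.63 to −0.47 in NOTCH1-labelled cells and from −0.67 to −0.50 in MCF10A. With a threshold of 1.5-fold, the members lower numbered 22 in NOTCH1-labelled cells and 26 in MCF10A, against 28.9% and 26.7% of all genes and 17.9% and 31.0% of genes with at least 5 FPKM. Those higher numbered 4 and 2, against 31.2% and 34.1% of all genes and 35.0% and 20.6% of genes with at least 5 FPKM. The differences between lines numbered 9 above and 7 below, against 35.9% and 28.7% of all genes and 44.4% and 12.1% of genes with at least 5 FPKM. At that threshold, 40 other ribosome biogenesis genes were lower and 23 higher in NOTCH1-labelled cells, and 48 lower and 10 higher in MCF10A. With a pseudocount of 1 FPKM, 2 members differed by at least 1 in favour of NOTCH1-labelled cells, and 1 did with the median ratio of each table removed. That removal subtracts 0.14 in NOTCH1-labelled cells and −0.11 in MCF10A and turned the median difference between the lines to −0.21. It also moved IMP4 (−0.09) and BYSL (−0.14) below 0 in NOTCH1-labelled cells. Without hosts of small RNAs, 1 member differed by at least 1 the other way. The cause of these changes was not tested beyond the construction of each setting. No paired analysis was possible because the files used here hold 1 value per gene and group, and for the same reason no replicate could be left out. The depth of the libraries is unknown, so the precision of low FPKM values cannot be given.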
